A study of Mus musculus with 12 samples.

Results

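The genes described here encode 10 carriers of sugars and monocarboxylates, or their partner, in CT26 mouse colon carcinoma cells: Slc2a1, Slc2a6, Slc2a8, Slc16a1, Slc16a3, Slc16a6, Slc16a7, Slc16a10, Slc16a13 and Bsg. They are listed by symbol, without a cut on any measured value, and are 10 of the 17097 genes that the arrays measured with a probe set of a single symbol. The list was chosen with earlier results of these data known, so its counts beside shares of all genes are descriptions. Each gene is given by its brightest such probe set, judged by the average of all 12 arrays. The study asked how low-glucose, low-serum medium and a platinum drug act on glucose use by these tumour cells. All 12 arrays hold RNA of this 1 cell line, grown outside the animal, with no genetic change given in the labels, and each of 4 groups has 3 arrays. CTR cells had medium with 1.0 g/L glucose and 10% foetal bovine serum. STS cells, the short-term starvation group, had 0.5 g/L glucose and 1% serum for 48 hours, so that glucose and serum were lowered together and cannot be told apart. OXP cells had the CTR medium with oxaliplatin, a platinum drug that cross-links DNA, and STS+OXP cells had the STS medium with the same drug, given 24 hours after starvation began. The labels give the dose as 10 µM, while the methods name 10 to 100 µM and a legend on gene expression 40 µM for 24 hours, so that the dose on these arrays is not settled.

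Glucose enters most cells down its gradient through the SLC2 family, of which GLUT1, the product of Slc2a1, is the main carrier of proliferating and tumour cells. Cells that turn glucose into lactate move lactate, pyruvate and ketone bodies, each with a proton, through the SLC16 family of monocarboxylate carriers, of which MCT1 and MCT4 need the glycoprotein basigin to reach the cell surface. Slc2a1 and Slc16a3 (MCT4) are known targets of the hypoxia factor HIF-1, which binds the letters ACGTG or GCGTG, and Slc16a1 (MCT1) is a known target of Myc, which binds the E-box CACGTG.

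The stretch around the start site is shown for the 3 sugar carriers and for Slc16a1, each of which passed the test in some comparison with CTR, so that these letters can be read beside their values. These are RefSeq sequences of GRCm38.p6, each with 250 bases before and 50 bases after the gene's start, written 5′ to 3′ along the gene, with ACGTG in capitals on either strand, and GCGTG and CACGTG likewise. The windows lie at chr4:119108495-119108794 on the plus strand for Slc2a1, chr2:27027949-27028248 on the minus strand for Slc2a6, chr2:32982034-32982333 on the minus strand for Slc2a8 and chr3:104638414-104638713 on the plus strand for Slc16a1.
Slc2a1: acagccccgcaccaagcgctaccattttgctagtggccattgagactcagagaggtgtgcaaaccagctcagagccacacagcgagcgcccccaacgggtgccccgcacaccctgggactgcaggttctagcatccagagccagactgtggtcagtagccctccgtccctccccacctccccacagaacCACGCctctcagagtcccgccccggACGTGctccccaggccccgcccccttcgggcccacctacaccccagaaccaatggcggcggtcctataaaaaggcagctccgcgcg
Slc2a6: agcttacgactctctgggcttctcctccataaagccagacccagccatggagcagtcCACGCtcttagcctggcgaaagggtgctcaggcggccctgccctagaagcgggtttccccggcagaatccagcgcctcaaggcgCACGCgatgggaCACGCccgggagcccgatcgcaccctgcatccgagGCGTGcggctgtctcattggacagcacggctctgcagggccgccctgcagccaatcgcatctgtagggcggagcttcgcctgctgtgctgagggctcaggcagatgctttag
Slc2a8: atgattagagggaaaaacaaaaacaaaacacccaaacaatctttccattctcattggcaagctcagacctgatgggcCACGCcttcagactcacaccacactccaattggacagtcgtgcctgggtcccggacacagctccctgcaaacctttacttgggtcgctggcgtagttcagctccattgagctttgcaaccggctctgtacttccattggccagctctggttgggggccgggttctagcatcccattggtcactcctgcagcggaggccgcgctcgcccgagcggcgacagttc
Slc16a1: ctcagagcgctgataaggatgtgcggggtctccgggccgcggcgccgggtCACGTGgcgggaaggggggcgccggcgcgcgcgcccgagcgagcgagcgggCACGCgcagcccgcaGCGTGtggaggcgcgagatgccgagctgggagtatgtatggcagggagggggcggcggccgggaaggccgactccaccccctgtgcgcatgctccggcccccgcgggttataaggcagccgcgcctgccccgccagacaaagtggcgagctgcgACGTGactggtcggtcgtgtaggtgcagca
In the Slc2a1 window ACGTG starts 36 bases before the start site, and CACGC, which is GCGTG on the other strand, starts 61 bases before it. The Slc2a6 window holds GCGTG 4 times on the 2 strands, and the Slc2a8 window holds it 1 time. The Slc16a1 window alone holds CACGTG, 200 bases before the start site, and those letters contain ACGTG on both strands. Of the 10 genes, 6 matched the promoter table. ACGTG was in 3 and GCGTG in 5 of these 6 windows, while 19.6% and 32.4% of all 32817 windows of this length held them, and CACGTG was in 7.15% of all windows. These are matches of letters and not binding sites.

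Signals are RMA values on the log2 scale, so that a difference of 1 is a doubling, and they are compared between groups within a gene, not between genes. An array's background was taken as its highest non-specific control probe set, leaving out a control made only of G and C bases, with averages of 3.66 for CTR, 3.47 for STS, 3.42 for OXP and 3.59 for STS+OXP. OXP replicate 1 stood apart in RNA quality, since its 3′ probe set of Gapdh exceeded the 5′ one by 3.85, while the other 11 arrays had differences from -0.12 to 0.28. OXP replicate 2 stood apart in another way. Its root mean square differences from the single STS+OXP arrays, over all genes, averaged 0.17, against 0.34 and 0.24 for OXP replicates 1 and 3. Its average difference from the other OXP arrays was larger, at 0.30. For OXP replicate 3 that difference was also the larger, at 0.27 against 0.24 from STS+OXP. Both averages over OXP arrays include OXP replicate 1. Among themselves the STS+OXP arrays had averages from 0.16 to 0.17. The reason for this likeness was not tested. Carrier changes that passed the test in OXP against CTR are therefore given with and without OXP replicates 1 and 2. Some other values that rest on the OXP group are given with all arrays only. No source says whether arrays of 1 group were separate cultures, so the p-values measure only the spread between arrays.

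Of the 10 carriers, 7 gave a signal above background on all 12 arrays, namely Slc2a1, Slc2a6, Slc2a8, Slc16a1, Slc16a6, Slc16a13 and Bsg. The other 3, Slc16a3, Slc16a7 and Slc16a10, were at background in all 4 groups. The control made only of G and C bases was brighter, from 5.14 to 5.61 in the group means, and Slc16a6 in all groups and Slc16a13 in CTR also lay at or below it. A gene is said to have risen or fallen where limma's test over all 12 arrays gave an adjusted p under 0.05 after Benjamini-Hochberg correction over the 17097 genes.

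**Figure D1:**
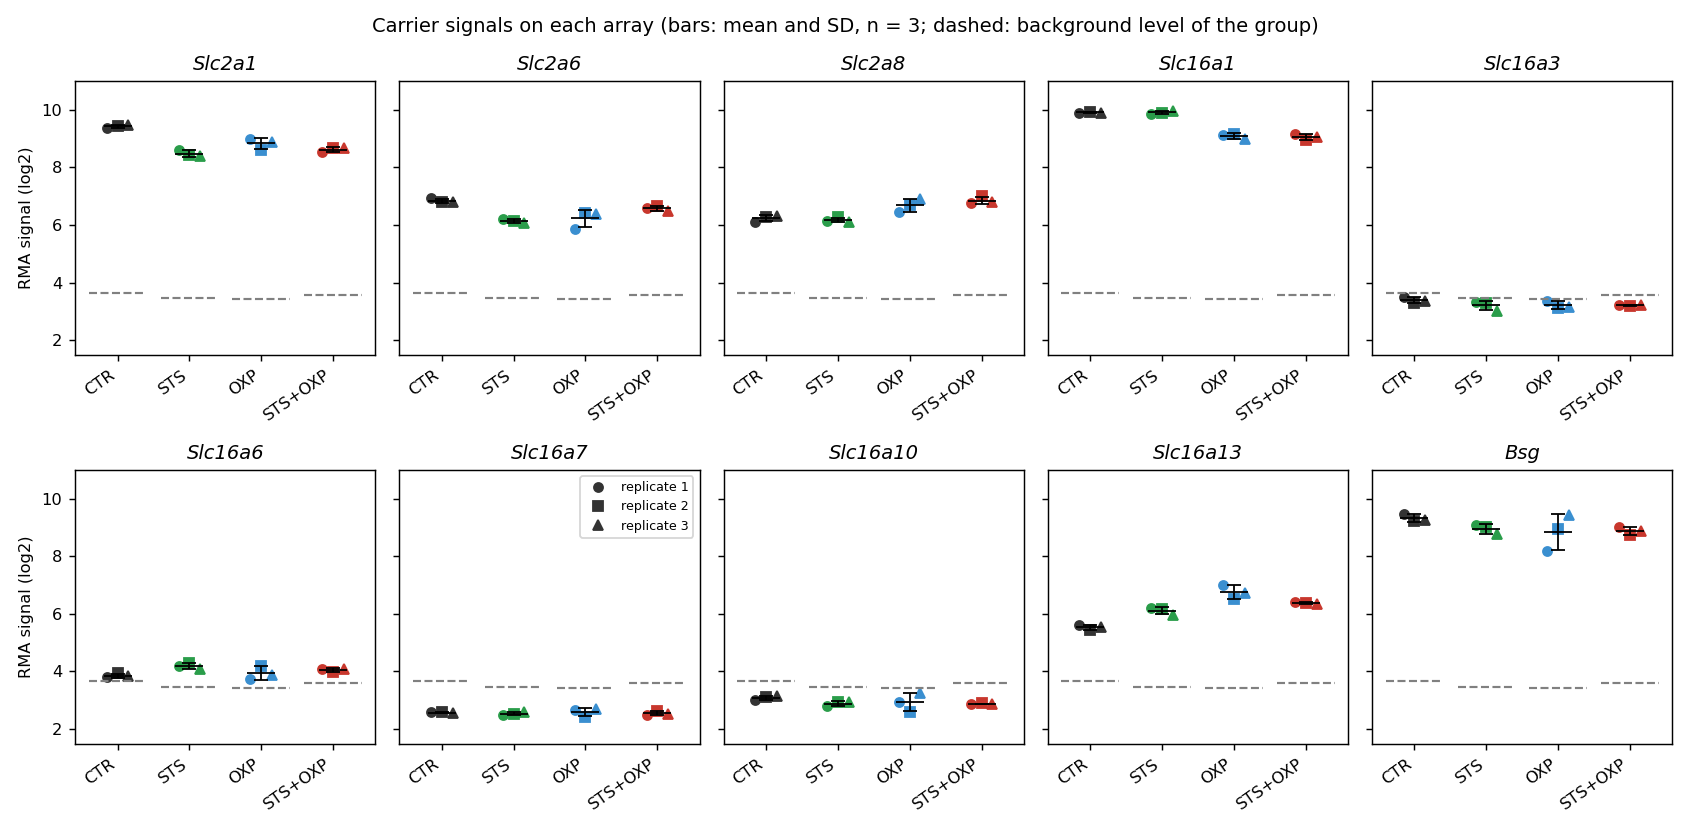
RMA signal (log2, vertical axes) of the 10 carriers in all 12 arrays, with the groups along the horizontal axes. Markers are replicates, bars are the mean and SD of 3 arrays, and the dashed line is the background of each group. Slc16a3, Slc16a7 and Slc16a10 lie near or under the dashed lines, Slc2a1 is highest in CTR, and Slc16a1 is lower on all 6 arrays with OXP.

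Slc2a1, which encodes the main glucose carrier of the plasma membrane, was highest in CTR and lower under each treatment. Its signal was 9.36, 9.44 and 9.48 on the CTR arrays and 8.61, 8.44 and 8.40 on the STS arrays. In OXP it was 9.002, 8.61 and 8.89, and in STS+OXP 8.53, 8.68 and 8.66. All 9 treated arrays lay below the 3 CTR arrays, and the 3 treated groups overlapped except that every OXP array but replicate 2 was above all STS and STS+OXP arrays. Against CTR, Slc2a1 fell by 0.94 in STS (standard error 0.0992, adjusted p = 2.14e-05, limma), a 1.93-fold lower signal. It fell by 0.60 in OXP (adjusted p = 0.000314) and by 0.81 in STS+OXP (adjusted p = 2.22e-05). Without OXP replicate 1 the log2 change in OXP was -0.68, without replicate 2 it was -0.48, and without both it was -0.54. In these bulk cultures, fewer cells that carry a transcript and less of it per cell cannot be told apart.

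STS+OXP differed from STS by 0.14 in Slc2a1 (95% interval -0.08 to 0.35, adjusted p = 0.395, limma) and from OXP by -0.21 (-0.42 to 0.00, adjusted p = 0.408). Without OXP replicate 2 the latter was -0.32 and passed the test (adjusted p = 0.0470). A second, dimmer probe set of Slc2a1, gave means of 8.25 for CTR, 7.17 for STS, 7.54 for OXP and 7.25 for STS+OXP, in the same order. Its log2 changes against CTR were -1.07, -0.71 and -0.996. The gene spans bases 119108745 to 119137330 of chromosome 4 in GRCm38.p6.

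Slc2a6 encodes GLUT6, a carrier found mostly in inner membranes. Its signal was 6.93, 6.80 and 6.81 in CTR, 6.22, 6.14 and 6.06 in STS, 5.88, 6.44 and 6.38 in OXP, and 6.60, 6.66 and 6.49 in STS+OXP. CTR was above every other group without overlap, STS+OXP came next, and STS and OXP overlapped at the bottom. Slc2a6 fell by 0.71 in STS (standard error 0.122, adjusted p = 0.00121, limma) and by 0.61 in OXP (adjusted p = 0.00129) against CTR. The change in OXP was -0.44 without OXP replicate 1, its lowest array, -0.72 without replicate 2, and -0.47 without both. In STS+OXP the difference from CTR was -0.26 and did not pass (95% interval -0.52 to 0.00, adjusted p = 0.139).

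With OXP in STS medium Slc2a6 rose by 0.45 over STS alone (adjusted p = 0.0170, limma), while the same drug in CTR medium lowered it. That call was lost when STS replicate 2 or 3 or STS+OXP replicate 1 or 2 was left out, with adjusted p from 0.0503 to 0.0716. The call for STS+OXP against CTR was gained without OXP replicate 1 (adjusted p = 0.0128), where the change itself stayed at -0.26. Slc2a6 lies on chromosome 2 from 27021363 to 27028000.

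Slc2a8 encodes GLUT8, a carrier of hexoses and disaccharides in endosomes and lysosomes. Against CTR it moved the other way from Slc2a1 in OXP and STS+OXP, but not in STS. Its signal was 6.12, 6.28 and 6.32 in CTR and 6.15, 6.27 and 6.12 in STS, which overlapped. With the drug it was 6.47, 6.69 and 6.92 in OXP and 6.76, 7.002 and 6.79 in STS+OXP, and these 6 arrays lay above all 6 arrays without it. Slc2a8 rose by 0.45 in OXP (standard error 0.110, adjusted p = 0.00529, limma) and by 0.61 in STS+OXP (adjusted p = 0.000586) against CTR. It rose by 0.67 in STS+OXP against STS (adjusted p = 0.000465), a 1.59-fold higher signal. STS alone differed from CTR by -0.06 (95% interval -0.30 to 0.18, adjusted p = 0.784). Without OXP replicate 1 the change in OXP was 0.57, without replicate 2 it was 0.46, and without both it was 0.69. The gene lies on chromosome 2 from 32972981 to 32982083.

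Slc16a1 encodes MCT1, which carries lactate, pyruvate and ketone bodies in either direction, and its signal followed the drug and not the medium. It was 9.89, 9.94 and 9.90 in CTR and 9.87, 9.91 and 9.97 in STS. In OXP it was 9.12, 9.17 and 8.98, and in STS+OXP 9.16, 8.96 and 9.06. The 6 arrays with OXP lay below the 6 arrays without it, and within each of these sets of 6 the media overlapped. Slc16a1 fell by 0.82 in OXP (standard error 0.0740, adjusted p = 1.21e-06, limma) and by 0.85 in STS+OXP (adjusted p = 8.78e-07) against CTR, and STS+OXP was 1.81-fold lower than STS (log2 change -0.85, adjusted p = 1.53e-06). STS differed from CTR by 0.01 (95% interval -0.15 to 0.17, adjusted p = 0.972).

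Leaving out OXP replicate 1, replicate 2 or both gave changes of -0.83, -0.86 and -0.92 in OXP. A second probe set of Slc16a1, with group means from 2.57 to 2.79, was at background. Averaged with it, the changes against CTR were -0.52 in OXP and -0.48 in STS+OXP, and -0.42 between STS+OXP and STS, and each passed. The gene lies on chromosome 3 from 104638664 to 104658462.

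Slc16a13 encodes MCT13, a monocarboxylate carrier known from liver. Its signal was 5.63, 5.43 and 5.54 in CTR, 6.20, 6.17 and 5.96 in STS, 6.999, 6.52 and 6.72 in OXP, and 6.41, 6.39 and 6.34 in STS+OXP. The 4 groups did not overlap, with CTR lowest, then STS, then STS+OXP, and OXP highest. Slc16a13 rose 2.32-fold in OXP (log2 change 1.21, standard error 0.110, adjusted p = 1.21e-06, limma), the largest change among the 10 carriers in the 3 comparisons with CTR. It rose by 0.58 in STS (adjusted p = 0.00230) and by 0.85 in STS+OXP (adjusted p = 3.45e-05). The change in OXP was 1.09 without OXP replicate 1, 1.33 without replicate 2 and 1.18 without both.

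The neighbouring steps of that order were smaller. STS+OXP was 0.27 above STS (95% interval 0.03 to 0.51, adjusted p = 0.106, limma), a difference that passed without OXP replicate 1 (adjusted p = 0.0306). It was 0.36 below OXP (adjusted p = 0.257), and 0.48 below it without OXP replicate 2 (adjusted p = 0.0149). Slc16a13 lies on chromosome 11 from 70216789 to 70222740.

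Slc16a6, which encodes MCT7, a carrier of ketone bodies in liver, was dim, at 3.79, 3.93 and 3.83 in CTR and 4.20, 4.29 and 4.10 in STS. It was 3.75, 4.20 and 3.89 in OXP and 4.09, 3.98 and 4.09 in STS+OXP. STS lay above CTR without overlap, OXP covered CTR and reached into STS, and STS+OXP lay between CTR and STS. Slc16a6 rose by 0.34 in STS against CTR (standard error 0.102, adjusted p = 0.0354, limma). Under median centring of each array the adjusted p was 0.0537, and it ran from 0.0505 to 0.134 when CTR replicate 1 or 3, STS replicate 1 or 2, or STS+OXP replicate 3 was left out. The differences from CTR in OXP and STS+OXP were 0.09 (adjusted p = 0.571) and 0.20 (adjusted p = 0.174). The gene lies on chromosome 11 from 109450855 to 109473598.

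The 3 carriers at background were Slc16a3, which encodes MCT4, the lactate exporter of strongly glycolytic cells, Slc16a7, which encodes the high-affinity pyruvate and lactate carrier MCT2, and Slc16a10, which encodes a carrier of aromatic amino acids. Slc16a3 ran from 3.024 to 3.52 over the 12 arrays, and only OXP replicate 1 rose above its array's background. Slc16a7 ran from 2.42 to 2.69 and Slc16a10 from 2.61 to 3.24, and neither exceeded it on any array. A fall from such a signal was not detectable, and no fold is given. They lie on chromosome 11 from 120948484 to 120959000, on chromosome 10 from 125219270 to 125389586, and on chromosome 10 from 40033532 to 40142270.

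Bsg, which encodes basigin, the partner of MCT1 and MCT4, was bright and varied most among the OXP arrays. Its signal was 9.47, 9.22 and 9.24 in CTR, 9.10, 9.002 and 8.76 in STS, and 9.02, 8.74 and 8.87 in STS+OXP. In OXP it was 8.17, 8.93 and 9.43, which covered the range of the STS and STS+OXP arrays and part of that of CTR. The SD of 0.63 in OXP compares with 0.14 to 0.18 in the other groups. STS and STS+OXP lay below CTR without overlap, yet the test over all genes did not pass, with differences from CTR of -0.36 in STS (95% interval -0.85 to 0.13, adjusted p = 0.348, limma), -0.47 in OXP (adjusted p = 0.149) and -0.44 in STS+OXP (adjusted p = 0.189).

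OXP replicate 1, the array with the raised Gapdh 3′ excess, held the lowest Bsg signal. Without it the difference of OXP from CTR was -0.13 (adjusted p = 0.553, limma), and that of STS+OXP, unchanged at -0.44, passed (adjusted p = 0.0159). Without OXP replicate 3 the difference of OXP was -0.76 and passed (adjusted p = 0.00651), and without replicates 1 and 2 together it was 0.11. In a fit limited to the 2 groups at hand, which takes the OXP arrays out of the estimated spread, Bsg passed in STS (adjusted p = 0.0249) and in STS+OXP (adjusted p = 0.00458), and without OXP replicates 1 and 2 in STS as well (adjusted p = 0.0210). The part of RNA quality in these values was not tested. Bsg lies on chromosome 10 from 79704358 to 79711979.

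Counted over the 10 carriers, 4 passed in STS against CTR, with Slc16a6 and Slc16a13 higher and Slc2a1 and Slc2a6 lower, where 16.5% of all genes passed, 9.75% higher and 6.74% lower. In OXP against CTR 5 passed, with Slc2a8 and Slc16a13 higher and Slc2a1, Slc2a6 and Slc16a1 lower, where 31.4% of all genes passed, 17.5% higher and 13.9% lower. In STS+OXP against CTR 4 passed, with Slc2a8 and Slc16a13 higher and Slc2a1 and Slc16a1 lower, where 30.6% of all genes passed, 16.4% higher and 14.2% lower. Slc2a1 was thus lower and Slc16a13 higher in each treated group against the same CTR arrays, which the 3 comparisons share. Under the methods' Welch test, which called 4.18% of all genes in STS and 6.05% in OXP, Slc16a6 and Slc16a13 lost their call in STS (adjusted p = 0.0946 and 0.0705), and Slc2a1, Slc2a6, Slc2a8 and Slc16a13 lost theirs in OXP (adjusted p = 0.144, 0.234, 0.215 and 0.0682).

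In STS+OXP against STS 3 carriers passed, with Slc2a6 and Slc2a8 higher and Slc16a1 lower, where 22% of all genes passed, 10.8% higher and 11.2% lower. Between STS+OXP and OXP limma called 0 carriers, against 0.0117% of all genes, 0.00585% in each direction, although 2 carriers, Slc2a6 and Slc16a13, had an unadjusted p under 0.05. Without OXP replicate 2 limma called 3 carriers there, Slc2a1, Slc2a6 and Slc16a13, while the share of all genes called rose to 6.82%. Without OXP replicates 1 and 2 it called 0 carriers and 4.02% of all genes. The median log2 differences of the 10 carriers were -0.12 for STS, -0.16 for OXP and -0.19 for STS+OXP against CTR, beside -0.03, -0.01 and 0.00 over all genes. For the 7 carriers above background they were -0.06, -0.47 and -0.26. Since members moved in both directions, the medians say little of any one of them.

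**Figure D2:**
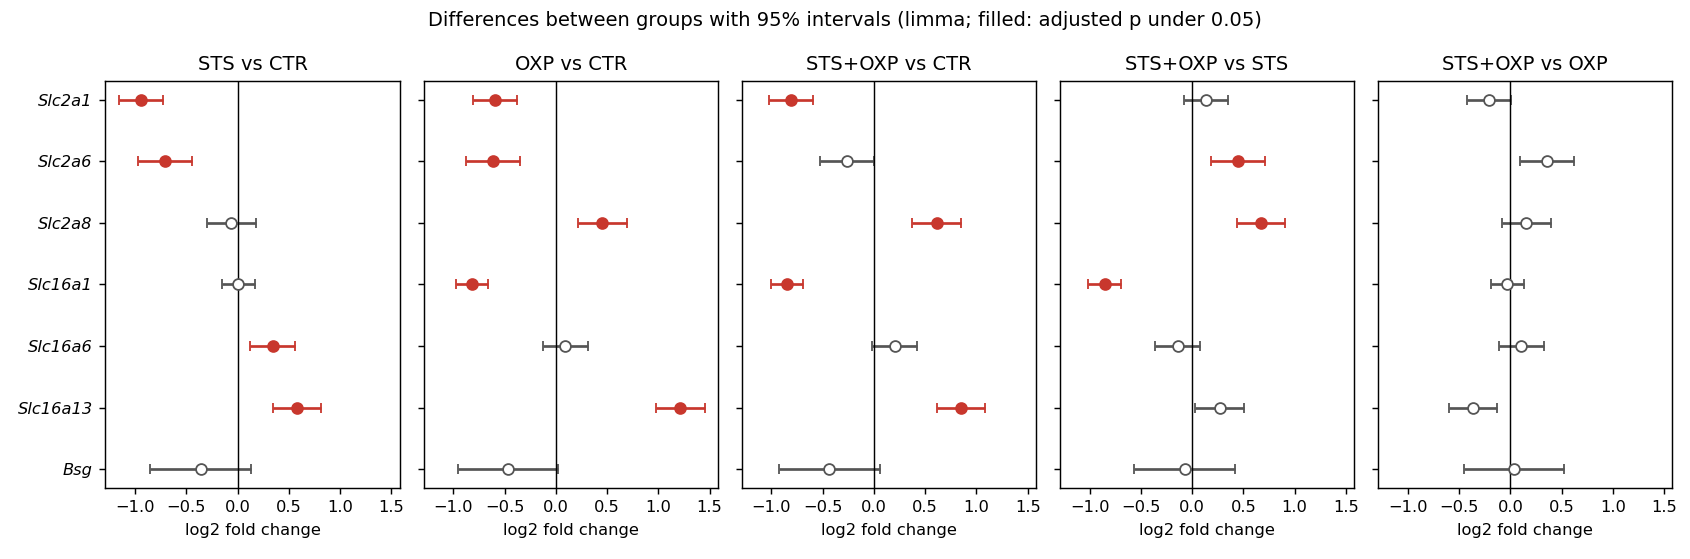
Log2 fold change (horizontal axes) with its 95% interval in 5 comparisons (panels) for the 7 carriers above background; filled points have an adjusted p under 0.05 (limma, over all genes). Slc16a1 sits near 0 in STS against CTR and near -0.8 wherever OXP was added, and Slc16a13 lies right of 0 in the 3 comparisons with CTR.

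Whether the medium acted alike with and without the drug was tested by an interaction term, the difference between STS+OXP and OXP minus that between STS and CTR. It passed in 3 of the 10 carriers, where 8.29% of all genes passed, 2.53% with a positive and 5.76% with a negative term. Limited to genes above background, 15.7% passed. For Slc2a1 the medium difference was -0.94 without OXP and -0.21 with it, an interaction of 0.74 (standard error 0.140, adjusted p = 0.00517, limma). For Slc2a6 it went from -0.71 to 0.35, an interaction of 1.06 (standard error 0.172, adjusted p = 0.00172). For Slc16a13 it went from 0.58 to -0.36, an interaction of -0.95 (standard error 0.155, adjusted p = 0.00188).

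Without OXP replicate 1, without replicate 2 and without both, the interactions were 0.82, 0.62 and 0.68 for Slc2a1, 0.88, 1.16 and 0.91 for Slc2a6, and -0.82, -1.06 and -0.92 for Slc16a13, and each passed. The second probe set of Slc2a1 gave 0.79 (adjusted p = 0.00289 over all named probe sets). For Slc16a1, which fell with OXP in both media, the interaction was -0.04 (95% interval -0.26 to 0.19, adjusted p = 0.888), and for Slc2a8 it was 0.22 (-0.12 to 0.55, adjusted p = 0.466).

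**Figure D3:**
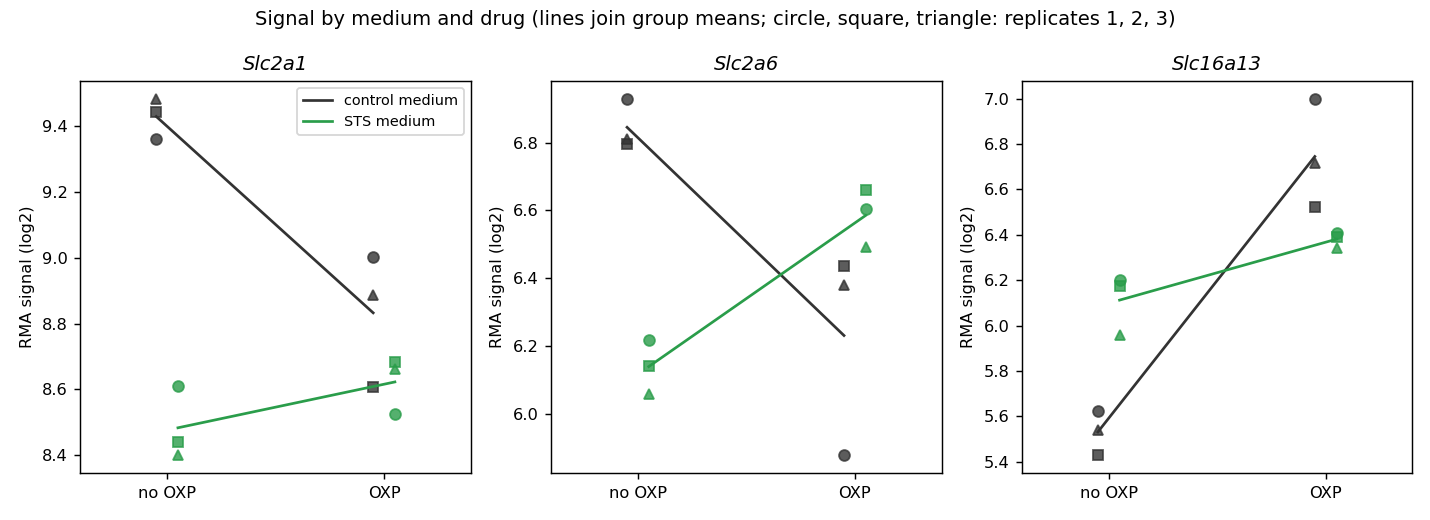
RMA signal (log2, vertical axes, each panel with its own range) of Slc2a1, Slc2a6 and Slc16a13 without and with OXP (horizontal axes), in CTR medium (dark) and STS medium (green). Markers are arrays and lines join the means of 3 arrays; the lines are not parallel, and for Slc2a6 and Slc16a13 they cross.

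The genes with the most similar course over the 12 arrays were found by the root mean square difference between centred signals, among 9221 genes above background. Nearest to Slc16a1 were Hnrnpab and Srsf3, which encode RNA-binding proteins, with differences of 0.0482 and 0.0504, closer than for any other carrier. Nearest to Slc2a6 were Selenos, a selenoprotein of the endoplasmic reticulum, and Cdk2ap2, at 0.0858 and 0.0966. Nearest to Slc2a1 were Tmem88 and Edem1, the latter of the disposal of misfolded proteins in the endoplasmic reticulum, at 0.123 and 0.127. For Slc2a8 they were the ephrin receptor gene Epha2 and Zcchc24, at 0.0898 and 0.0970. For Slc16a13 they were Kidins220 and Bbs2, at 0.101 and 0.109, and for the dim Slc16a6 they were Cnn3 and Hsd17b12, at 0.0837 and 0.0861. These were picked for likeness on the same arrays, so the values are descriptions.

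Among 8 other measured genes of the SLC2 family, 3 were above background in at least 1 group, and Slc2a2, Slc2a3, Slc2a5, Slc2a10 and Slc2a12 were at background in all. Slc2a9, which encodes a carrier of urate and hexoses, was 3.91, 3.51 and 3.99 in CTR and 3.70, 3.87 and 3.89 in STS, close to background. It was 5.78, 5.47 and 5.72 in OXP and 5.51, 5.10 and 5.20 in STS+OXP, so that all arrays with the drug lay above all arrays without it. Slc2a9 rose by 1.86 in OXP (adjusted p = 1.64e-07, limma) and by 1.47 in STS+OXP (adjusted p = 1.54e-06) against CTR, where a start so close to background limits the fold. Without OXP replicate 1, replicate 2 or both, the change in OXP was 1.79, 1.95 and 1.92.

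Slc2a13, which encodes the proton-coupled carrier of myo-inositol, was above background in STS only, at 3.86, 4.06 and 4.03. Its means of 3.26 in CTR and 3.16 in STS+OXP were at background, so the STS signal was at least 1.25-fold higher than in CTR (adjusted p = 3.61e-05, limma) and at least 1.31-fold higher than in STS+OXP (adjusted p = 5.34e-06). Such a bound sets the dim group at the higher of its own signal and the background of each array. Slc2a4, the insulin-responsive carrier, stayed between means of 3.71 and 3.92 with no call.

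Of 7 sodium-coupled glucose carriers of the SLC5 family, 2 were above background in at least 1 group. Slc5a11 was above it in CTR, STS and OXP, with means of 3.79, 3.49 and 3.66, and passed in no comparison. Slc5a2 was above background in CTR only, with a mean of 3.81. It was at least 1.25-fold lower in OXP (adjusted p = 0.0101, limma) and at least 1.17-fold lower in STS+OXP (adjusted p = 0.0101), calls that were lost without CTR replicate 1 (adjusted p = 0.0555 and 0.0557) and, in STS+OXP, without STS+OXP replicate 3 (adjusted p = 0.0535). Among 7 other measured genes of the SLC16 family, only Slc16a11 was above background, with means from 4.20 to 4.26, and none passed in any comparison.

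Emb encodes embigin, a relative of basigin that also escorts monocarboxylate carriers. Its signal was 8.53, 8.29 and 8.44 in CTR, 8.08, 8.05 and 8.01 in STS, 8.02, 8.03 and 8.08 in OXP, and 7.97, 7.90 and 7.85 in STS+OXP. All treated arrays lay below all CTR arrays. Emb fell by 0.37 in STS (adjusted p = 0.00311, limma), by 0.38 in OXP (adjusted p = 0.00116) and by 0.52 in STS+OXP (adjusted p = 8.56e-05). With all probe sets of the gene averaged, the changes in STS and OXP were -0.13 and -0.20 and no longer passed (adjusted p = 0.289 and 0.0595), while that in STS+OXP was -0.33 (adjusted p = 0.00319).

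Mpc1, which encodes a subunit of the mitochondrial pyruvate carrier, rose by 0.28 in OXP (adjusted p = 0.0128, limma), and by 0.20 without OXP replicate 1, which did not pass (adjusted p = 0.0509). Slc5a8 and Slc5a12, sodium-coupled carriers of monocarboxylates, were at background in all groups.

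**Figure D4:**
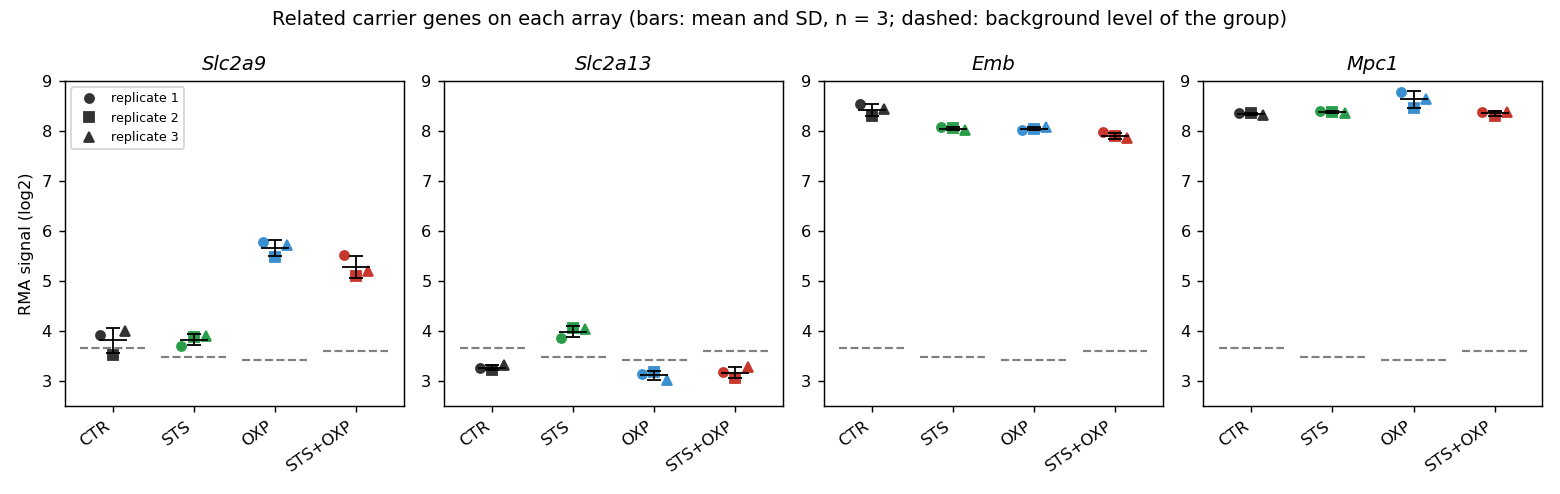
RMA signal (log2, vertical axes) of Slc2a9, Slc2a13, Emb and Mpc1 in all 12 arrays, with the groups along the horizontal axes. Markers are replicates, bars are the mean and SD of 3 arrays, and dashed lines are the background of each group; Slc2a9 is close to background in CTR and STS and clearly above it on the 6 arrays with OXP, and the mean of Slc2a13 is above background in STS alone.

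Of 14 measured genes of lactate and pyruvate conversion, 2 rose and 3 fell in STS, 2 rose and 4 fell in OXP, and 3 rose and 6 fell in STS+OXP, against CTR, where 16.5%, 31.4% and 30.6% of all genes passed. Limited to genes above background, these shares were 30.3%, 54.8% and 54.2%. Among the 14 genes, Pdk2 rose with OXP, but its signal was at background in all groups. Ldha, which encodes the main subunit of the enzyme that turns pyruvate into lactate, was 11.69, 11.74 and 11.82 in CTR, 11.39, 11.34 and 11.20 in STS, 11.23, 10.56 and 11.28 in OXP, and 10.50, 10.46 and 10.50 in STS+OXP. STS+OXP was below all other arrays, and OXP replicate 2 lay next to it. Ldha fell by 0.73 in OXP (adjusted p = 0.00142, limma), or by 0.49 without OXP replicate 2. In STS+OXP it fell by 1.26 (adjusted p = 1.24e-05). In STS the difference of Ldha was -0.44 and did not pass (adjusted p = 0.0573, limma). It passed when OXP replicate 1, 2 or 3 was left out, with adjusted p from 0.000603 to 0.0368. With any other single array left out it did not, with adjusted p up to 0.192. Pdk1 encodes a kinase that shuts off pyruvate dehydrogenase. It fell by 1.31 in STS+OXP (adjusted p = 4.82e-05), by 0.73 in OXP (adjusted p = 0.00510) and by 0.55 in STS (adjusted p = 0.0470). Without OXP replicate 1, replicate 2 or both, the Pdk1 change in OXP was -0.85, -0.47 and -0.45. The STS call of Pdk1 was lost under 12 alternatives, among them the leaving out of any 1 CTR, STS or STS+OXP array. Pdhx, which encodes a structural subunit of pyruvate dehydrogenase, fell by 0.70 in STS+OXP (adjusted p = 7.22e-06) and by 0.36 in OXP (adjusted p = 0.00205). In STS, the phosphatase genes Pdp2 and Pdp1, whose products turn pyruvate dehydrogenase on, rose by 0.91 (adjusted p = 0.00580) and 0.38 (adjusted p = 0.00455), and Pdhb, a catalytic subunit, fell by 0.34 (adjusted p = 0.00613). Pdp1 also rose by 0.32 in OXP (adjusted p = 0.00663, limma) and by 0.29 in STS+OXP (adjusted p = 0.0126). Pdp2 also rose in STS+OXP, by 0.72 (adjusted p = 0.0114). Both STS+OXP calls were lost without some single arrays, with adjusted p up to 0.0665. Pdhb also fell by 0.30 in OXP (adjusted p = 0.00692) and by 0.43 in STS+OXP (adjusted p = 0.000498). With all probe sets averaged, the change of Pdhb in STS was -0.18 and did not pass (adjusted p = 0.120), and that of Pdp1 was 0.66.

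Of 11 genes of the traffic of glucose carriers to and from the cell surface, 2 rose and 1 fell in STS, 6 rose and 1 fell in OXP, and 4 rose and 1 fell in STS+OXP, against CTR, where 16.5%, 31.4% and 30.6% of all genes passed. Limited to genes above background, these shares were 30.3%, 54.8% and 54.2%. Txnip, whose product promotes uptake of GLUT1 from the surface, was 3.96, 4.74 and 4.58 in CTR, 6.33, 6.36 and 6.47 in STS, 8.97, 8.32 and 8.87 in OXP, and 8.43, 8.44 and 8.41 in STS+OXP. CTR was lowest, STS lay between, and both groups with OXP were highest. Txnip rose by 1.96 in STS (adjusted p = 6.76e-06, limma), by 4.29 in OXP (adjusted p = 1.09e-09) and by 4.001 in STS+OXP (adjusted p = 1.90e-09). Its changes in OXP were 4.17, 4.49 and 4.44 without OXP replicate 1, replicate 2 and both. With both probe sets of the gene averaged they were 1.07 for STS, 2.49 for OXP and 2.45 for STS+OXP, and each passed.

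Tbc1d5, whose product acts on Rab7 beside the retromer that returns GLUT1 to the surface, rose by 0.37 in STS (adjusted p = 0.0123, limma) and fell by 0.66 in both OXP (adjusted p = 6.63e-05) and STS+OXP (adjusted p = 6.78e-05). The STS call was lost without STS replicate 1 (adjusted p = 0.0614) and with all probe sets averaged, where the changes were 0.10 in STS, -0.20 in OXP (adjusted p = 0.0112) and -0.21 in STS+OXP (adjusted p = 0.0107). Vps26a, a retromer subunit, rose by 0.52 in OXP (adjusted p = 0.000243) and by 0.43 in STS+OXP (adjusted p = 0.00106). Gipc1, an adaptor that binds the tail of GLUT1, fell by 0.38 in STS (adjusted p = 0.0201), a call lost without CTR replicate 2 or 3 or STS replicate 1 or 3, with adjusted p from 0.0554 to 0.0822.

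The cells were checked against markers of their labelled tissue. Of 13 measured markers of intestinal epithelium, 9 were at background in all groups, among them Cdh1, Krt18, Krt19, Cdx1 and Vil1. In each group 3 or 4 were above it. Krt20, Epcam and Cdx2 were above it in all groups, with means from 6.72 to 7.07, from 4.66 to 4.87 and from 3.93 to 4.14. Of 10 mesenchymal markers, 9 or 10 were above background in each group, and their log2 summed signal ran from 12.53 to 12.63 for CTR, from 12.78 to 12.85 for STS, from 12.61 to 12.62 for OXP and from 12.55 to 12.61 for STS+OXP, highest in STS. Of 7 measured leukocyte markers, Ptprc, Lyz2 and Itgam were at background in all groups, Adgre1 and Cd3e were above it in all groups, with means from 3.65 to 3.73 and from 4.29 to 4.44, Csf1r was above it in 2 groups, and Cd68 in OXP only. Of 5 endothelial markers, Pecam1, Cdh5, Tek and Emcn were at background in all groups. Kdr was above it in all groups, with means from 3.67 to 4.01, and fell by 0.34 in STS+OXP against CTR (adjusted p = 0.0273, limma), a call lost without replicate 1 or 3 of CTR or of STS+OXP (adjusted p from 0.0755 to 0.127). Cd68, a lysosomal gene strong in macrophages, was 5.22, 3.07 and 4.92 in OXP and from 2.87 to 3.42 on the other arrays, so that it was raised on the OXP arrays that lay farther from STS+OXP. The part of these markers in the carriers' values was not tested.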

How the data were processed

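RNA of CT26 cells was hybridised to a 3′ Affymetrix mouse array, 12 arrays in 4 groups of 3. The deposited values are log2 RMA signals of 45141 probe sets; per the submitters' notes the authors ran RMA in R 3.02, and no other step is given in the sources used here. Arrays give no read depth, and 3 arrays a group limit the precision. Of the probe sets, 28898 had 1 symbol, 551 several, 15588 none and 104 were controls; the brightest set of each symbol gave 17097 genes. limma 3.58.1 in R 4.3.3 (lmFit, eBayes, 4 group means, two-sided, Benjamini-Hochberg over all genes, threshold 0.05) was used and tested on simulated data. Background was each array's highest non-specific control of 22; the set made only of G and C bases was left out after its values were seen, which departs from the rule first written. Of further lists, up to 3 called genes with the smallest adjusted p per comparison were named, and for each called carrier the 2 most similar genes. The carriers and lists were chosen with earlier results of these data known. The alternatives were other centring, probe sets, filters, weights, blocks, the methods' unequal-variance (Welch) test and left-out arrays.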

Additional observations from a re-analysis of the deposited data

Results flagged for a closer look

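The interaction term, which tests whether the STS medium acted alike with and without OXP, passed in 3 carriers, with log2 values of 0.74 for Slc2a1 (adjusted p = 0.00517, limma), 1.06 for Slc2a6 (adjusted p = 0.00172) and -0.95 for Slc16a13 (adjusted p = 0.00188). The range over leaving out each array in turn was 0.62 to 0.82 for Slc2a1, 0.88 to 1.16 for Slc2a6 and -1.06 to -0.82 for Slc16a13, and each passed every time.

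Among the related genes it passed for Txnip at -2.26 (adjusted p = 0.000101, limma), for Slc2a13 at -0.67 (adjusted p = 0.00247) and for Pdp1 at -0.41 (adjusted p = 0.0393). With all probe sets averaged the values were -1.10 for Txnip (adjusted p = 0.00585) and -0.72 for Pdp1 (adjusted p = 0.00775). The value for Slc2a13 is not a bound, since 3 of its 4 groups were at background. The call for Pdp1 was lost under 12 of the alternatives, 8 of them the leaving out of 1 array, namely CTR replicate 2 or 3 or replicate 1 or 2 of STS, OXP or STS+OXP, where the adjusted p ran from 0.0519 to 0.101. Groups of 3 arrays were not tested for outlying arrays.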

How the results depend on the processing

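Over 60 differences of the 10 carriers and 1432 recomputed values, 1395 stayed on the same side of the threshold, 16 lost a call, 21 gained one and 0 reversed a called direction. Of 19 called differences, 12 passed under every alternative. Signs changed in 59 values that passed in neither setting, the largest of them the difference of Bsg between OXP and CTR. The methods' Welch test called 2 carriers in STS against CTR and 1 in OXP against CTR, in place of 4 and 5, as calls over all genes went from 2819 to 715 and from 5377 to 1034. Without both OXP replicates 1 and 2, a fit that gives the single OXP array left the spread of the other groups, 8 carriers passed in STS+OXP against CTR, in place of 4, as calls over all genes went from 5230 to 6178. Of these 8, Slc16a10 (log2 change -0.20, adjusted p = 0.0404) was at background in all groups, as it was where it passed in OXP without OXP replicate 3 (-0.30, adjusted p = 0.0399), so neither is read as a fall. Leaving out each array in turn gave 3 to 4 carriers in STS, 5 to 7 in OXP and 4 to 6 in STS+OXP against CTR, 2 to 4 in STS+OXP against STS, 0 to 3 in STS+OXP against OXP, the 3 being without OXP replicate 2, and 3 in the interaction. Over all genes, STS+OXP against OXP went from 2 calls (2160 at an unadjusted p under 0.05) to 1166 without OXP replicate 2 and 688 without OXP replicates 1 and 2. Replicate numbers did not pair the arrays (correlation of deviations -0.20 to 0.10 over 18 pairs, and 2 of 12 arrays closest to their own number), and with the replicate block the counts were 4, 5, 4, 3, 0 and 3, as without it. Of 44 called differences of 16 other genes recomputed, 18 passed under every alternative and 11 more were lost only in the Welch test. The mesenchymal markers were not among these genes. Signal near background limits Slc16a6 and the 3 carriers at background.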
